A study of Ovis aries with 10 samples.

Results

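The miR-200 family was examined through its 3 probes on a custom ovine array, oar-miR-200a, oar-miR-200b and oar-miR-200c. They were taken by name and not by a cut-off on a measured value, but with earlier results of these data known. All 3 probes gave a value on each of the 10 arrays and had a mean log2 signal over 5, so none was lost to low signal. The arrays covered lung tissue of 5 sheep, and each sheep gave a fibrotic and a normal caudal lung segment. The animals were female and 9 months old according to the labels, and they were euthanised after 4 weeks. Fibrosis was induced with bleomycin, an agent that injures lung tissue, instilled into a caudal segment through a bronchoscope, and the control segment of the same animal received saline. The 5 sheep had been selected for the most severe fibrosis among those treated, and each normal segment comes from an animal that carried bleomycin in its other lung, which limits both groups as models. Groups were taken from the sample labels, which name the left segment as fibrotic in sheep 2 and 3 and the right segment in sheep 6, 7 and 10, whereas the experiment is described with bleomycin on the left side throughout. Because the study listed these miRNAs from the same samples, the direction of their change here is not independent evidence.

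MiRNAs of the miR-200 family are short RNAs that are abundant in epithelial cells and scarce in mesenchymal cells. They repress ZEB1 and ZEB2, transcription factors that switch off E-cadherin, and ZEB1 and ZEB2 repress the miR-200 genes in turn, so that the family is widely used as a gauge of epithelial state. TGF-β, a driver of lung fibrosis, shifts this loop away from the epithelial side. The members are read from separate genomic clusters. In mammals miR-200b, miR-200a and miR-429 are transcribed together, and miR-200c is transcribed with miR-141 from another chromosome. The seed, the stretch near the 5′ end that selects target mRNAs, divides the family differently, since miR-200b and miR-200c share a seed and miR-200a carries another. In the RefSeq gene table of the sheep assembly ARS-UI_Ramb_v3.0, MIR200A and MIR200B were adjacent entries between the protein-coding genes TTLL10 and C12H1orf159. MIR200C lay on a different chromosome between the protein-coding genes PHB2 and PTPN6. No probe for miR-141 or miR-429 was among those analysed here.

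All values below are background-corrected array intensities on a linear scale or their log2. From the normal to the fibrotic segment, the intensity of miR-200b went from 1184 to 2515 for sheep 2, from 1187 to 1650 for sheep 3, from 1373 to 1665 for sheep 6, from 1052 to 1763 for sheep 7, and from 1634 to 2028 for sheep 10. The fibrotic segment was the higher in every animal, and the highest normal array, that of sheep 10, lay just under the lowest fibrotic array, that of sheep 3. The intensity of miR-200a went from 867 to 2593 for sheep 2, from 689 to 1052 for sheep 3, from 2088 to 1979 for sheep 6, from 740 to 1598 for sheep 7, and from 1742 to 1910 for sheep 10. The groups of miR-200a overlapped, because sheep 6 and 10 had brighter normal segments than the fibrotic segments of sheep 3 and 7. The intensity of miR-200c went from 773 to 1604 for sheep 2, from 739 to 795 for sheep 3, from 858 to 1037 for sheep 6, from 608 to 996 for sheep 7, and from 846 to 666 for sheep 10. Its groups overlapped too, and sheep 10 was the animal with a dimmer miR-200c in the fibrotic segment.

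**Figure D1:**
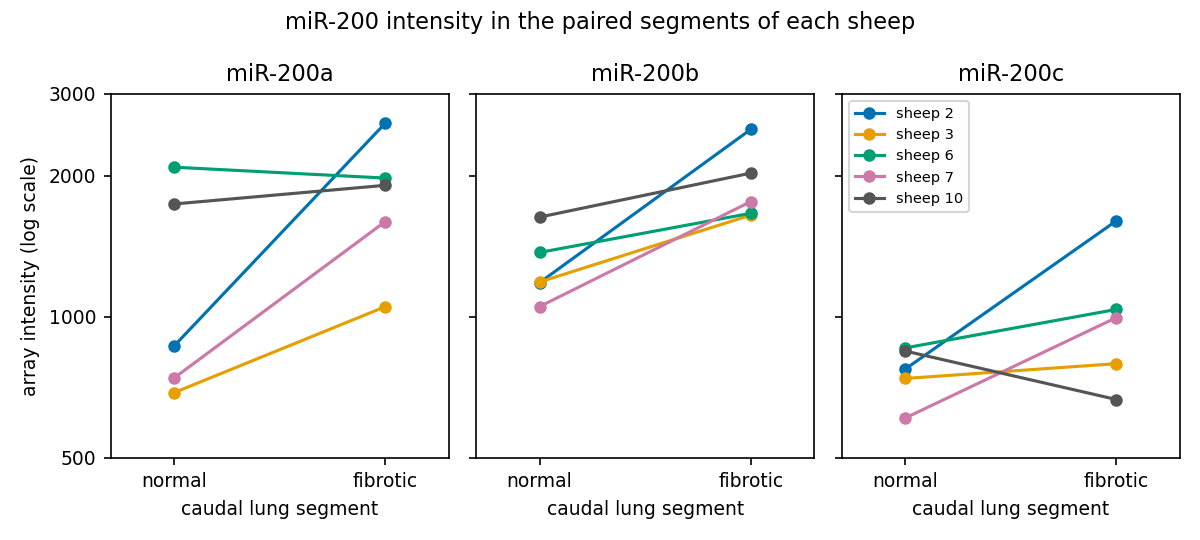
Array intensity (log scale) of miR-200a, miR-200b and miR-200c in the normal and the fibrotic caudal segment, with a line for each of the 5 sheep. Every line of miR-200b goes up, the line of sheep 6 goes slightly down for miR-200a, and the line of sheep 10 goes down for miR-200c.

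The normal segments differed most between animals in miR-200a, where the highest was 3.03-fold above the lowest, compared with 1.55-fold for miR-200b and 1.41-fold for miR-200c. Among fibrotic segments this ratio was 2.47 for miR-200a, 1.52 for miR-200b and 2.41 for miR-200c. Within sheep, the ratio of the fibrotic to the normal segment of miR-200a was 2.99 for sheep 2, 2.16 for sheep 7, 1.53 for sheep 3, 1.10 for sheep 10 and 0.948 for sheep 6. For miR-200b it was 2.13 for sheep 2, 1.68 for sheep 7, 1.39 for sheep 3, 1.24 for sheep 10 and 1.21 for sheep 6. For miR-200c it was 2.07 for sheep 2, 1.64 for sheep 7, 1.21 for sheep 6, 1.08 for sheep 3 and 0.788 for sheep 10. Sheep 2 had the highest ratio and sheep 7 the next for each member, while sheep 3, 6 and 10 followed in a different order for miR-200c than for the other members.

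The comparison of fibrotic with normal segments asked whether the family changed with injury. The log2 signal of miR-200b averaged 10.31 ± 0.24 (SD, n = 5) over the normal and 10.89 ± 0.26 (SD, n = 5) over the fibrotic segments. In limma with the sheep as a block, its log2 fold change was 0.58 with a standard error of 0.17 and a 95% confidence interval from 0.16 to 0.996. The limma adjusted p was 0.411, with a range from 0.184 to 0.953 over the alternative settings. The interval of miR-200b lay above 0 before adjustment for the number of probes, and the change did not pass the threshold after it. MiR-200a averaged 10.10 ± 0.74 (SD, n = 5) over the normal and 10.77 ± 0.48 (SD, n = 5) over the fibrotic segments, and its log2 fold change was 0.67 with a standard error of 0.28 and an interval from -0.036 to 1.38. Its limma adjusted p was 0.428, between 0.184 and 0.931 over the alternatives. The interval of miR-200a included 0, and its normal segments had the widest spread of the 3 members. MiR-200c averaged 9.57 ± 0.20 (SD, n = 5) over the normal and 9.93 ± 0.48 (SD, n = 5) over the fibrotic segments, with a log2 fold change of 0.36, a standard error of 0.23 and an interval from -0.22 to 0.94. Its limma adjusted p was 0.540, between 0.190 and 0.931 over the alternatives. For all 3 members the lowest value came from centring on the control probes named Ctr, a reference chosen after seeing the data. Thus 0 of the 3 members passed an adjusted p under 0.05, and neither did any other miRNA probe of the array (0%).

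At an unadjusted limma p under 0.05 there were 18 probes (11.8%) in either direction and 10 (6.58%) higher in the fibrotic segments, of which miR-200b was the only member, with an unadjusted p of 0.0152, the lowest of the array. The study ran the methods' t-test within each sheep. Here the test was paired over the sheep, a different unit of replication, so its counts cannot be set against the study's. The test paired over sheep gave miR-148a as the 1 probe below the study's threshold of 0.01, a probe named after its values were seen. At an unadjusted 0.05 it gave 9 probes, and 0 after Benjamini-Hochberg adjustment over all miRNA probes. MiR-200b was higher in the fibrotic segment of 5 of 5 sheep (p = 0.0625 by an exact permutation test that flips the sign of each sheep, two-sided, the lowest that 5 animals allow). As many as 13 probes (8.55%) were higher in each of the 5 sheep, among them 5 of the 59 whose mean log2 signal reached 5. MiR-200a and miR-200c were each higher in 4 of 5 sheep (exact sign-flip permutation test, p = 0.125 and p = 0.250). All 5 fibrotic arrays lay above all 5 normal arrays for 2 probes (1.32%), miR-200b and miR-199a-3p, the second of which was named after its values were seen. In bulk tissue, a change in the number of cells that make a miRNA and a change in its amount per cell cannot be told apart.

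**Figure D2:**
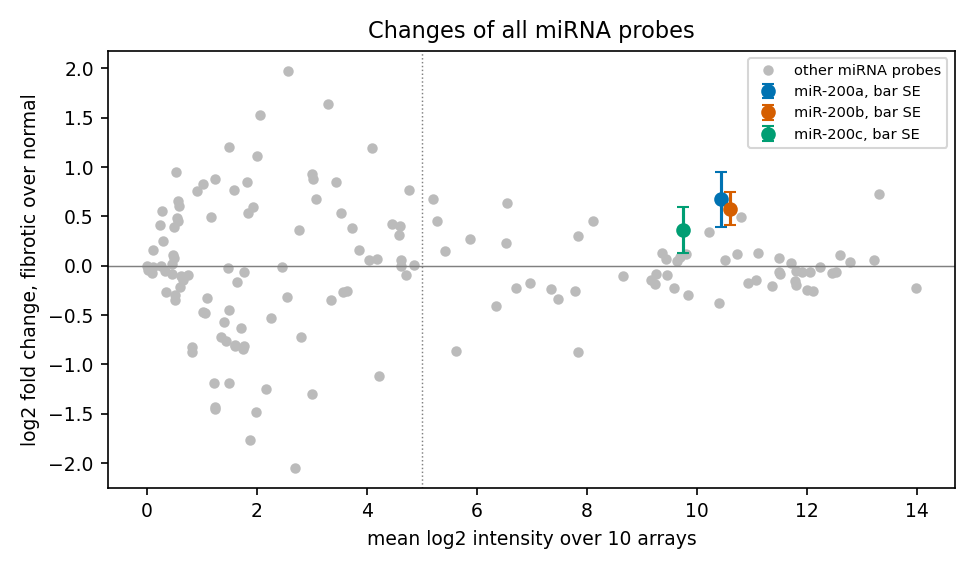
Log2 fold change of the fibrotic over the normal segments against the mean log2 intensity over 10 arrays for all miRNA probes, with bars for the standard error of the 3 miR-200 members and a dotted line at the limit of 5 for dim probes. All 3 members lie to the right of that limit and above 0, and the widest scatter of the other probes is to the left of it.

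Among the 59 probes whose mean log2 signal reached 5, the log2 fold change of miR-200a ranked 3 from the top, that of miR-200b 5 and that of miR-200c 9. These places varied between animals. In sheep 2 miR-200a had the highest change of the 59, and miR-200b and miR-200c were at places 5 and 6. In sheep 6 miR-200b and miR-200c were at places 9 and 11 and miR-200a at place 38. In sheep 10 miR-200b was at place 12, miR-200a at 21 and miR-200c at 47.

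The clusters were compared by the difference of the changes within each sheep, so that no probe was set against the brightness of another. The change of miR-200b exceeded that of miR-200c by 0.035 for sheep 2, 0.37 for sheep 3, 0.0046 for sheep 6, 0.033 for sheep 7 and 0.66 for sheep 10 on the log2 scale. In sheep 2, 6 and 7 these members of different clusters, which share a seed, moved almost alike, and the difference came from sheep 3 and 10. Its mean was 0.22 with a standard error of 0.13 (p = 0.0625 by the exact sign-flip permutation test, two-sided, and 0.188 adjusted over the 3 pairs of members). Without sheep 10 the mean difference was 0.11. With the left segment taken as fibrotic in every sheep it was -0.058.

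The change of miR-200a exceeded that of miR-200c by 0.53 for sheep 2, 0.50 for sheep 3, 0.40 for sheep 7 and 0.48 for sheep 10, and the same difference was -0.35 for sheep 6. The mean was 0.31 with a standard error of 0.17 (exact sign-flip permutation test, p = 0.125, and 0.188 adjusted over 3 pairs). It was 0.48 without sheep 6. Within the cluster, the change of miR-200a less that of miR-200b was 0.49 for sheep 2, 0.14 for sheep 3, -0.36 for sheep 6, 0.37 for sheep 7 and -0.18 for sheep 10. The neighbours thus differed in no common direction, with a mean of 0.092 and a standard error of 0.16 (exact sign-flip permutation test, p = 0.625 before and after adjustment). This mean was -0.0086 without sheep 2, 0.20 without sheep 6, 0.024 without sheep 7 and 0.16 without sheep 10. No pair of members could reach an adjusted p under 0.05 with 5 sheep, and a difference between the clusters was not shown. MiR-200b and miR-200c are close in sequence, and how far each probe also captures the other RNA was not tested.

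**Figure D3:**
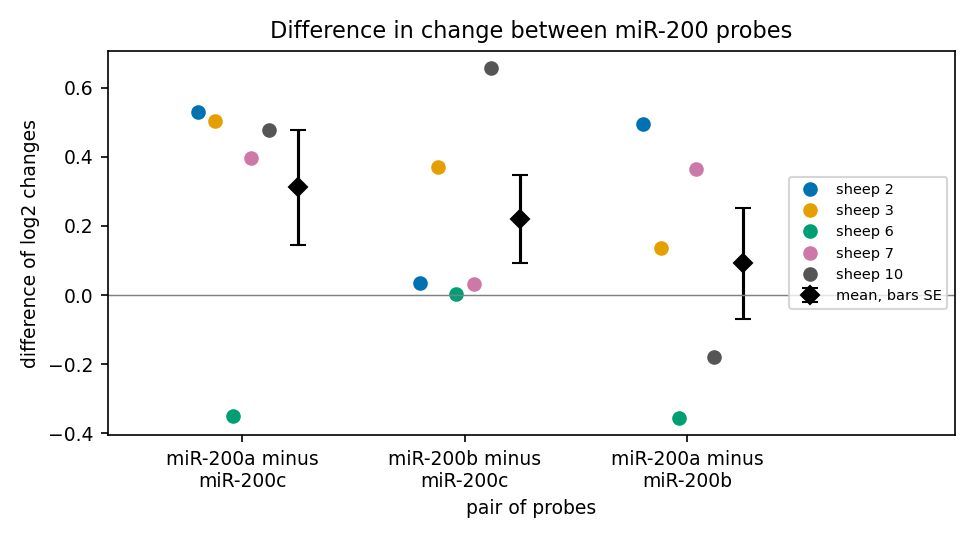
Difference of the log2 changes (fibrotic over normal) for each pair of miR-200 probes, with 1 point per sheep and a diamond with bars for the mean and its standard error over 5 sheep. MiR-200b less miR-200c lies near 0 for sheep 2, 6 and 7 and apart from it in sheep 3 and 10, and sheep 6 alone is below 0 for miR-200a less miR-200c.

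The control probes of the arrays moved with the members from sheep to sheep. The summed miRNA intensity lay between 138979 and 146225 on the 10 arrays, whereas the summed intensity of the 55 control probes ran from 78151 to 936426. The mean log2 change of the control probes from the normal to the fibrotic segment was 0.45 for sheep 2, -0.085 for sheep 7, -0.36 for sheep 3, -0.48 for sheep 10 and -0.80 for sheep 6. The mean change of the 3 members was 1.24 for sheep 2, 0.86 for sheep 7, 0.40 for sheep 3, 0.033 for sheep 10 and 0.16 for sheep 6, so the sheep in which the members changed most were those in which the control probes had the highest change. The 12 control probes for 5S rRNA, an RNA of the ribosome, changed by 0.74 for sheep 2, 0.32 for sheep 7, 0.27 for sheep 3, -0.19 for sheep 10 and -0.62 for sheep 6. The median change of all miRNAs within a sheep stayed between -0.13 and 0.13. It was 0 in sheep 3, 7 and 10, and probes raised to 1 on both arrays of a sheep have a change of 0. This median is therefore a poor gauge of the stability of the miRNA signal. The part of the control probe signal in the spread of the miR-200 changes was not tested.

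**Figure D4:**
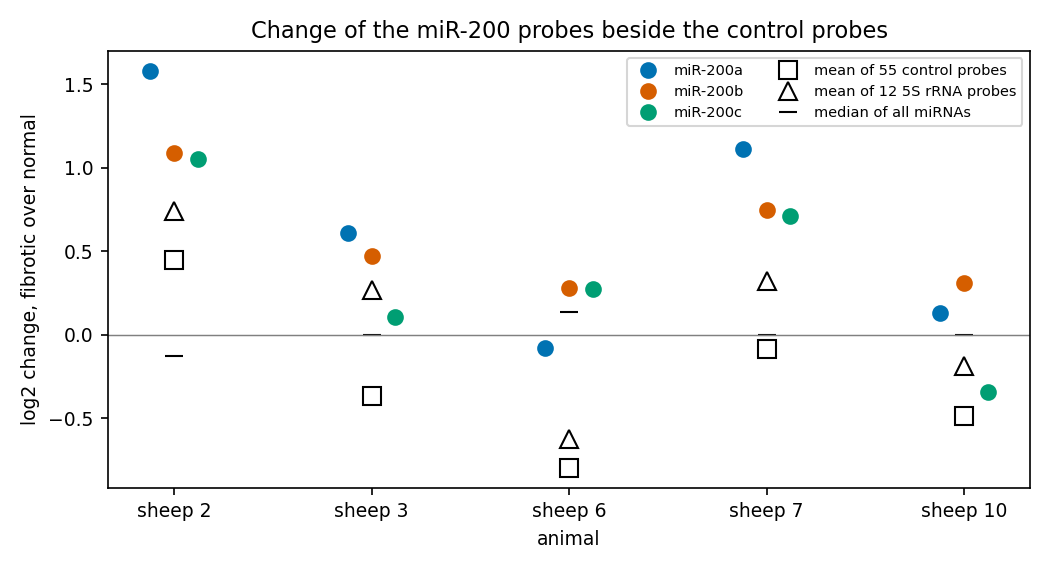
Log2 change of the fibrotic over the normal segment in each sheep for the 3 miR-200 members (filled circles), the mean of the 55 control probes (squares), the mean of the 12 5S rRNA probes (triangles) and the median of all miRNAs (dashes). The members and the control probes are highest in sheep 2, and the members stay above the mean of the control probes in every sheep.

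After centring every array on the control probes, all 3 members were higher in the fibrotic segment of 5 of 5 sheep, as were 17 of all miRNA probes (11.2%). Within a sheep this centring subtracts the same control change from every probe, -0.80 for sheep 6 and -0.48 for sheep 10, which by itself turned miR-200a of sheep 6 and miR-200c of sheep 10 from lower to higher. The change of miR-200a then lay between 0.62 and 1.20 over the sheep, with an SD of 0.25 in place of 0.68. That of miR-200b lay between 0.64 and 1.07, with an SD of 0.16 in place of 0.34, and that of miR-200c between 0.14 and 1.07, with an SD of 0.35 in place of 0.54. The spread depended on which control probes served as the reference. With 3 references chosen after seeing the data, the SD of miR-200b was 0.26 with the 5S rRNA probes, 0.11 with the probes named Ctr and 0.42 with those named PUC2. For miR-200a these SDs were 0.24, 0.33 and 0.31, and for miR-200c 0.44, 0.33 and 0.48. With all 55 control probes the mean changes were 0.93, 0.84 and 0.62 for miR-200a, miR-200b and miR-200c. Centring on all control probes shifted the median miRNA from -0.021 to 0.23. Relative to the median miRNA the changes were 0.69 for miR-200a, 0.60 for miR-200b and 0.38 for miR-200c. These are the same with and without centring, because centring shifts every probe of an array alike. With arrays centred on all control probes, the lowest limma adjusted p of the members was 0.326. Relative to the 5S rRNA probes alone, a reference chosen after seeing the data, miR-200a and miR-200b were higher in 5 of 5 sheep, as were 8 of all miRNA probes (5.26%), and miR-200c in 3 of 5, with mean changes of 0.57, 0.48 and 0.26. Relative to miR-103, the reference miRNA of the study's PCR, the changes were 0.58 for miR-200a, 0.49 for miR-200b and 0.27 for miR-200c.

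The side of the lung was not balanced over the groups, since the fibrotic segment is labelled left in sheep 2 and 3 and right in sheep 6, 7 and 10. In sheep 2 and 3 alone the log2 fold changes were 1.10 for miR-200a, 0.78 for miR-200b and 0.58 for miR-200c. In sheep 6, 7 and 10 alone they were 0.39, 0.45 and 0.21. With side as a covariate beside the sheep they were 0.74, 0.61 and 0.40, and the difference between right and left segments was -0.35, -0.17 and -0.18 on the log2 scale, with limma adjusted p values between 0.899 and 0.928. With the left segment taken as fibrotic in every sheep, as the description of the experiment has it, the changes dropped to 0.21 for miR-200a, 0.045 for miR-200b and 0.10 for miR-200c. The size of each change therefore rests on the labels of sheep 6, 7 and 10. It rests on sheep 2 as well, without which miR-200a changed by 0.44 and miR-200c by 0.19.

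**Figure D5:**
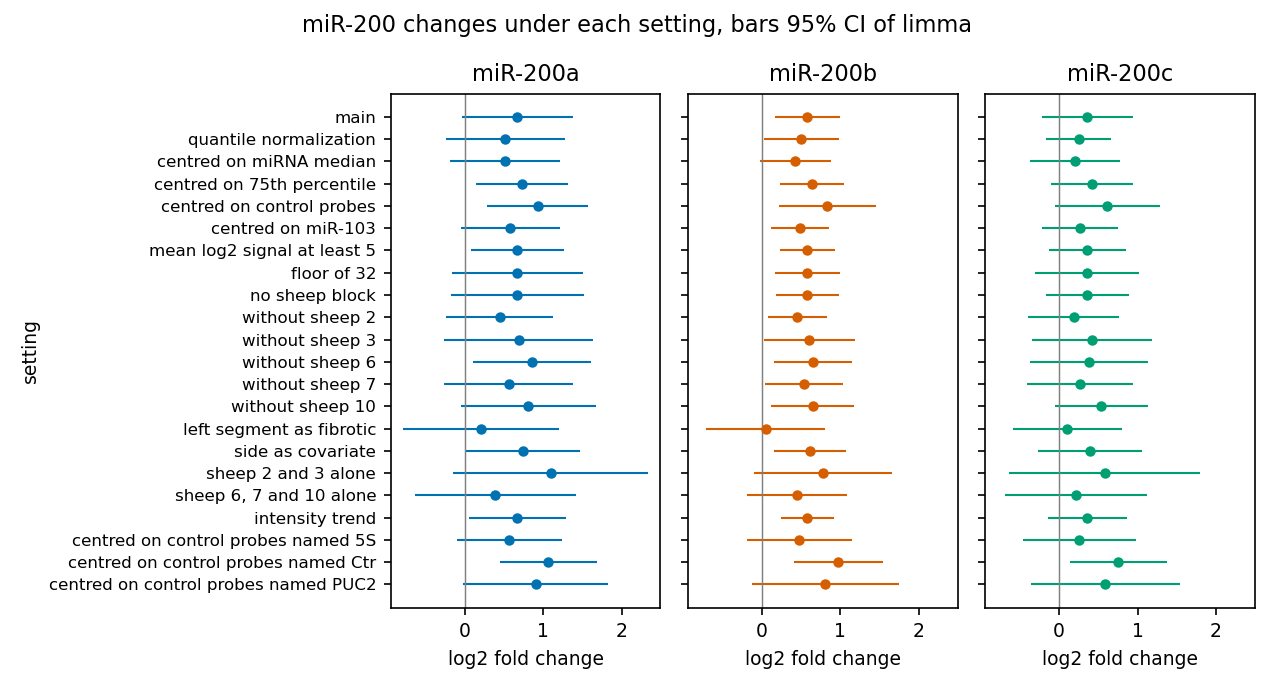
Log2 fold change of the fibrotic over the normal segments for miR-200a, miR-200b and miR-200c with its 95% confidence interval in limma. The rows are the reported setting (main) and each alternative setting other than the methods' t-test. Every point lies above 0, and the points for the left segment as fibrotic lie nearest to it, at 0.21, 0.045 and 0.10.

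Other miRNAs linked to epithelial state and TGF-β were listed together although their roles are opposed, so the list implies no common direction. Among the 11 matched probes of this list of 15, 0 passed an adjusted p under 0.05 in limma. Of these, 3 were higher and 8 lower in the fibrotic segments, with a median log2 fold change of -0.20 against -0.021 for all miRNA probes, and 3 had an unadjusted p under 0.05 in limma (27.3%, against 11.8% of all probes). The study had listed all 11 as changed in these same samples, in the same directions, and the list was chosen with earlier results of these data known. The counts, the median and the share are therefore not independent evidence. MiR-21, which TGF-β induces, had a log2 fold change of 0.73 with a standard error of 0.25. MiR-199a-3p, a miRNA of mesenchymal cells, had 0.49 with a standard error of 0.17, and the other mesenchymal probes are given below. The miR-30 family, known to restrain the epithelial to mesenchymal transition, had values of -0.25 for miR-30a-5p, -0.25 for miR-30b, -0.20 for miR-30c and -0.38 for miR-30d. MiR-30a-3p, from the opposite strand of the miR-30a precursor and so not covered by that role, had -0.88. Let-7d, which represses the transition regulator HMGA2, was at -0.066, and miR-26a at -0.22. MiR-29a and miR-29b, which repress collagen mRNAs, were at -0.19 and 0.13. The limma adjusted p of the 11 lay between 0.411 and 0.840.

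Markers of cell types were few on this array. Of 13 miRNAs listed as epithelial beside the members, only miR-194 had a probe, with a summed intensity from 84.9 to 145 in normal and from 77.3 to 118 in fibrotic segments and a log2 fold change of -0.23. The epithelial content of the segments therefore could not be read from other markers. The 4 matched mesenchymal miRNAs of 6 summed to between 6128 and 20977 in normal and between 9056 and 17021 in fibrotic segments, with 2 higher and 2 lower and a median change of -0.047. They were miR-199a-3p at 0.49, miR-143 at 0.056, miR-152 at -0.15 and miR-133 at -0.86. The 2 matched leukocyte miRNAs of 6, miR-150 and miR-181a, were both lower, at -0.30 and -0.17, with sums from 2395 to 3954 in normal and from 1656 to 3641 in fibrotic segments. The single endothelial probe of 3, miR-221, was at 0.047, with intensities from 587 to 1121 in normal and from 657 to 954 in fibrotic segments, and no erythroid miRNA of the 2 listed had a probe. None of these lists held a probe with an adjusted p under 0.05, and in the mesenchymal list 1 probe, miR-199a-3p, had an unadjusted p under 0.05. The part of cell composition in the miR-200 values was not tested.

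Among the 56 other probes whose mean log2 signal reached 5, miR-21 had the pattern most like the mean of the 3 members, with a Pearson correlation of 0.91 over the 10 arrays. These arrays share 5 animals and the array signal described above, so the correlation is a description. The change of miR-21 was 1.57 for sheep 2, 0.997 for sheep 7, 0.69 for sheep 3, 0.31 for sheep 10 and 0.075 for sheep 6. The mean change of the 3 members was 1.24, 0.86, 0.40, 0.033 and 0.16 in the same animals. That of miR-200a alone, the member nearest to miR-21, was 1.58, 1.11, 0.61, 0.13 and -0.077, whereas miR-200c was at -0.34 in sheep 10. Next over the 10 arrays came miR-495-3p with 0.80, miR-379-5p with 0.75, miR-19b with 0.72 and miR-29b with 0.72. The most opposite patterns were those of miR-30a-3p with -0.90, miR-25 with -0.81 and miR-99a with -0.79. Correlations of the changes within the 5 sheep were 0.96 for miR-21, 0.89 for miR-495-3p, 0.39 for miR-379-5p, 0.85 for miR-19b and 0.50 for miR-29b. For miR-30a-3p, miR-25 and miR-99a they were -0.77, -0.62 and -0.81. Within the family, the correlation over the 10 arrays was 0.82 between miR-200a and miR-200b, 0.70 between miR-200b and miR-200c and 0.67 between miR-200a and miR-200c.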

How the data were processed

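Lung RNA of 5 sheep was labelled with 1 dye and hybridised to 10 custom ovine arrays of 152 miRNA probes and 55 control probes. The array is called ovine after the study's methods and the probe names, whereas the protocol in the labels names a mouse layout. For every array the authors deposited the background-corrected intensity of each probe, averaged over its replicate spots. The methods mention log2 transformation, but the deposited intensity values were linear, from 0.000974 to 200194. No scaling between arrays is given in the sources used here. The summed miRNA intensity was much alike on the 10 arrays, from 138979 to 146225. Whether the deposited values had been scaled to a common miRNA total was not tested. Values under 1 were raised to 1 before taking log2, which affected no miR-200 value. A linear model of condition and animal was run for all 152 miRNAs in limma 3.58.1 (R 4.3.3, lmFit, then eBayes), followed by Benjamini-Hochberg adjustment. Differences between members were tested by exact sign-flip permutation over the 5 sheep. Pairing follows the animal named in the labels. Deviations of paired segments from their group means correlated across miRNAs at 0.34, 0.90, 0.40, -0.67 and 0.56 for sheep 2, 3, 6, 7 and 10. The model was tested on simulated data. The members, the marker lists and the rule for named miRNAs were chosen with earlier results of these data known. The rule was to name the 3 members, miR-103, matched probes of the lists, and the 5 most and 3 least correlated probes whose mean log2 signal reached 5. Alternatives covered scaling, a filter on dim probes, a floor of 32, the block, each sheep left out, the segment labels, side, an intensity trend and the methods' t-test, run here paired over sheep. The number of arrays limits the precision.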

Additional observations from a re-analysis of the deposited data

Results flagged for a closer look

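The difference between the changes of miR-200a and miR-200c was flagged because 1 animal lay far from the others. It was between 0.40 and 0.53 on the log2 scale in sheep 2, 3, 7 and 10 and -0.35 in sheep 6, and the gap of sheep 6 to its nearest neighbour took 0.851 of the whole range. Chance alone marks about 1 in 20 groups in this way, and 12 sets of 5 values were examined. Sheep 6 also had the lowest change of the control probes, -0.80, and the normal segment with the highest miR-200a intensity, 2088. Their part in the difference was not tested.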

How the results depend on the processing

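The log2 fold changes of miR-200a, miR-200b and miR-200c stayed above 0 under all 22 alternatives tried for each, 3 of them (control probes split by name) added after seeing the data, and none brought an adjusted p under 0.05. They ran from 0.21 to 1.10 for miR-200a, from 0.045 to 0.97 for miR-200b and from 0.10 to 0.75 for miR-200c. The filter on dim probes, the floor of 32, the fit without the block, the intensity trend and the methods' t-test left these estimates unaltered. The direction under those settings was therefore fixed in advance. MiR-200c was at 0.20 with arrays centred on the miRNA median. With 1 sheep left out in turn the ranges were 0.44 to 0.86, 0.45 to 0.65 and 0.19 to 0.54. Without the replicate block, that is without pairing by sheep, the changes were unaltered at 0.67, 0.58 and 0.36. The limma adjusted p rose to 0.716 for miR-200a and miR-200b and 0.739 for miR-200c. The unadjusted limma p rose from 0.0591 to 0.107 for miR-200a. It fell from 0.0152 to 0.0095 for miR-200b and from 0.177 to 0.161 for miR-200c. The count of miRNAs called was 0 under each alternative. The change of miR-200b less that of miR-200c turned to -0.058 with the left segment as fibrotic and lay between 0.11 and 0.27 with 1 sheep left out. The change of miR-200a less that of miR-200c lay between 0.26 and 0.48 with 1 sheep left out and was 0.10 with the left segment as fibrotic. The change of miR-200a less that of miR-200b turned to -0.057 in sheep 6, 7 and 10 alone and lay between -0.0086 and 0.20 with 1 sheep left out. The cause of these turns was not tested.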
